A study of Mus musculus with 36 samples.

Results

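The oligoadenylate synthetase family was followed in the spleens of 36 mice, with members chosen by gene name: Oas1a, Oas1b, Oas1g, Oas2, Oas3, Oasl1 and Oasl2. Of these 7 genes, 6 are named by 1 probe set each among the 45101 of the array table, and Oas1g is named by none, so it has no value here. The family was picked with earlier results of the same arrays in view, namely the high and low sets of mice in Oas1b and the joint variation of its members. Those values are therefore given as a description, without a test.

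The samples were 18 arthritic spleens (labelled ART) and 18 non-arthritic spleens (labelled NON) from mice of 4 months, with 1 Affymetrix expression array per mouse. The design text opens with a number of mice that does not match its own group sizes, and the 36 labelled arrays were taken as 36 mice. The animals were F2 offspring of a cross, and the series title calls the arthritic mice deficient for the interleukin 1 receptor antagonist. The labels give no parental strain, genotype, sex or treatment for single mice, so it is not known which alleles the non-arthritic animals share with the arthritic ones. As markers of spleen, B cell genes had a mean log2 level of 12.60 to 13.69 and red pulp macrophage genes of 11.79 to 13.31 over all 36 arrays.

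Oligoadenylate synthetases are interferon-induced sensors of double-stranded RNA. The active enzymes join ATP into short 2′-5′ linked chains, which act as a second messenger of the antiviral response. In mice a cluster of Oas1 copies lies beside the larger enzymes Oas2 and Oas3, which carry repeated synthetase units, while Oasl1 and Oasl2 carry ubiquitin-like domains at their end. Mouse Oas1b is known as the gene behind resistance to flaviviruses, which many laboratory strains lack because of a premature stop codon. The RefSeq table lists the C57BL/6J copy as a transcribed pseudogene.

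All 7 genes lie on chromosome 5 in that reference. Their order is Oasl2, Oasl1, Oas2, Oas3, Oas1b, Oas1g and Oas1a, with further Oas1 copies between them. A known element of interferon-induced promoters is the interferon-stimulated response element. Its core, searched here as GAAA, any 2 bases and GAAA again, was looked for on both strands in RefSeq promoters of 300 bases (250 before and 50 after the start site, build GRCm38.p6). Of the 7 members, 5 have an entry, and 3 of these held a match, against 3.44% of all 32851 promoters. These 3 windows are shown because they hold the match, given in capitals, and Oas1g is printed beside Oas1a as its close copy without a signal here.
Oas1a: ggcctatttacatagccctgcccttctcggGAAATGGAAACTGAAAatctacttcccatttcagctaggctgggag
Oas1g: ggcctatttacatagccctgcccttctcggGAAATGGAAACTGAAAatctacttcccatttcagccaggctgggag
Oas3: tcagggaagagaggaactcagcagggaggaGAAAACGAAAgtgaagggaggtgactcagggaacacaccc

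The Oas1a window is chr5:120907500-120907575, the Oas1g window chr5:120887586-120887661 and the Oas3 window chr5:120777695-120777764, all on the minus strand. In Oas1a and in Oas1g, 2 overlapping matches fill the capitals, which end 5 and 3 bases before the start site. In Oas3 the single match ends 66 bases before it. The Oas1a and Oas1g windows were identical at 75 of 76 bases. The promoters of Oasl1 and Oasl2 held 0 matches, which says only that these letters are not in those windows.

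Values are intensity as deposited, and tests and levels use log2(intensity + 16), a scale that understates changes of dim probe sets. The probe set of 1 gene was not compared in level with that of another. Whether the probe sets of Oas1a and Oas1b also catch RNA of near-identical copies, Oas1g among them, was not tested. In whole spleen, fewer cells of a type and less RNA per cell cannot be told apart. Array medians were between 110.6 and 183.2, and precision is set by how many mice each group holds.

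Oas1a and Oas1b were among the most variable probe sets, with an SD over 36 mice of 1.50 and 1.28 log2 at the 99.8 and 99.7 percentiles of all tested, whose median SD was 0.36. Oas2, Oas3 and Oasl2 had SDs of 0.78, 0.79 and 0.72, and Oasl1 0.51. Oas1b divided the mice into a low and a high set. In 7 mice its intensity was 12.1 (NON2), 19.1 (ART18), 20.7 (NON13), 21.2 (NON10), 21.7 (ART14), 23.6 (ART12) and 25.5 (NON5). In the other 29 it ran from 134.8 through a median of 238.4 to 687.8. No mouse lay between 25.5 and 134.8, a gap of 1.86 on the log2 scale. The low set held 3 of 18 arthritic and 4 of 18 non-arthritic mice.

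A high and a low set was read wherever the widest gap with at least 4 mice on each side reached 0.5 log2 and the means of the sets lay at least 4 pooled SDs apart. Among all 27022 tested probe sets, 280 (1.04%) met this rule, and among the members Oas1b and Oas1a did. The means of the Oas1b sets were 5.98 pooled SDs apart. With a pseudocount of 1 or 64 and after quantile normalization the low set again held 7 mice. A pseudocount cannot change the order of the mice, only where the widest gap falls and its size. The arrays also fall into 3 divisions, A, B and C, by the profile of their added hybridisation control RNAs, which no label names. They follow the replicate numbers of the arthritic mice: ART1 to ART9 are in A, and ART10 to ART18 in B or C. The non-arthritic arrays of A are NON1, NON2, NON5 and NON6. The low Oas1b set held 2 arrays of A, 3 of B and 2 of C. The Gapdh 3′ to 5′ log2 ratio, a sign of RNA quality, was -0.46 to 0.21 in the low set and -0.56 to 0.18 in the high set.

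Oas1a, an active synthetase of the Oas1 group, was low in nearly the same animals. Its widest gap lay between intensities of 187.3 and 423.0, again with 7 mice below it. This gap was 1.11 on the log2 scale, and the means of the sets lay 4.58 pooled SDs apart, near the limit of 4. Of these 7 mice, 6 were also in the low Oas1b set. A second gap, nearly as wide, lay lower, between NON13 (5.91 log2) and NON11 (6.92 log2). With a pseudocount of 1 it is the wider, and only the 4 mice up to NON13 then form the low set. The lowest 4 were ART18 at 20.6, ART12 at 26.4, NON10 at 41.7 and NON13 at 44.2. NON5 at 134.6 and ART14 at 187.3 lay closer to the other mice.

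The 2 low sets parted in a pair of animals. NON2 had the lowest Oas1b of all 36 mice but an Oas1a intensity of 602.0, rank 20 from the lowest. NON11 had an Oas1a intensity of 105.0 while its Oas1b, at 139.0, lay at the lower edge of the high set. At this cut the plot of Oas1a against Oas1b thus has mice low in both, mice high in both, and 1 mouse low in each gene alone. With a pseudocount of 1 the Oas1a cut falls below NON11, NON5 and ART14. No mouse is then low in Oas1a alone, and NON5 and ART14 join NON2 as low in Oas1b alone.

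**Figure D1:**
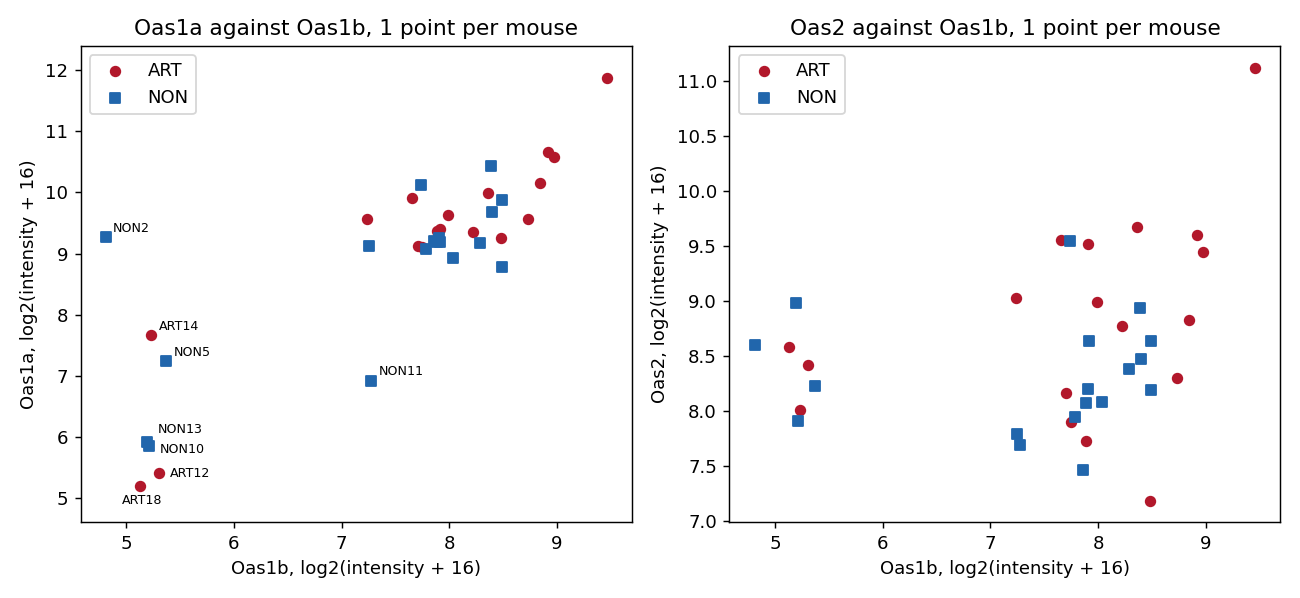
Log2(intensity + 16) of Oas1a (left) and Oas2 (right) on the y axis against Oas1b on the x axis, with 1 point per mouse, circles for the 18 ART and squares for the 18 NON mice. The 7 mice low in Oas1b stand apart on the x axis, and their Oas2 values fall within the range of the other 29. With the pseudocount of 16, 6 of them are also in the low Oas1a set.

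The other members did not divide along the Oas1b sets. Oas2 ran from 224.2 to 491.3 in the 7 low mice, inside the range of 129.7 to 2213 in the other 29. Oasl1 ran from 183.3 to 432.2 in the low mice and from 147.6 to 947.9 in the others. Both genes therefore overlapped fully between the sets.

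Oas3 had a median intensity of 268.4 in the low Oas1b mice and 492.1 in the others, with ranges of 85.0 to 644.7 and 97.0 to 1480. For Oasl2 the medians were 223.5 and 351.3, with ranges of 124.7 to 365.1 and 193.5 to 2357. The ranges overlapped in both genes. ART12, of the low Oas1b set, had the lowest Oasl2 of all mice, and ART18, also of that set, the lowest Oas3.

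Arthritic and non-arthritic mice were then compared, which asks whether the family's RNA differs with disease. All 6 members had a higher mean in arthritic spleens, but none passed the test, and the groups overlapped in each. Oas1a had a lowest, median and highest intensity of 20.6, 701.1 and 3758 in arthritic and of 41.7, 564.9 and 1361 in non-arthritic mice. For Oas1b these were 19.1, 231.4 and 687.8 against 12.1, 218.4 and 344.0. The low mice of both genes sat at the bottom of both groups.

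Oas2 reached a lowest, median and highest intensity of 129.7, 429.1 and 2213 in arthritic and of 160.2, 281.7 and 730.2 in non-arthritic mice. The non-arthritic median was exceeded by 13 of the 18 arthritic mice. Its mean log2 level was 8.82 ± 0.92 (SD, n = 18) against 8.32 ± 0.51 (SD, n = 18), a difference of 0.50 (SE 0.23) or 1.42-fold, with a limma adjusted p of 0.288. It was the member with the smallest p, 0.0382 before adjustment.

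Oas3 showed medians close to each other, 479.3 in arthritic and 468.9 in non-arthritic mice, with ranges of 85.0 to 1480 and 97.0 to 1023. Oasl1, which in mice restrains the translation of Irf7, had medians of 350.2 and 310.9 and ranges of 183.3 to 947.9 and 147.6 to 478.4. Oasl2, an interferon-induced member with synthetase activity in mice, had medians of 358.0 and 317.7 and ranges of 124.7 to 2357 and 195.0 to 696.6. In all 3 genes the arthritic group held the highest mouse.

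The limma differences, arthritic minus non-arthritic, were 0.48 (SE 0.47) for Oas1a, 0.42 (SE 0.40) for Oas1b, 0.11 (SE 0.25) for Oas3, 0.23 (SE 0.16) for Oasl1 and 0.24 (SE 0.23) for Oasl2. With the Gapdh 3′ to 5′ ratio as a covariate the difference was 0.36 for Oas2, 0.36 for Oas1a and 0.39 for Oas1b. It was then 0.11 for Oas3, 0.090 for Oasl1 and 0.087 for Oasl2. Without this covariate, the adjusted p-values of the 5 members other than Oas2 over the 27022 tested probe sets ran from 0.478 to 0.855. Limma called 0 of the 6 members, against 0.0481% of all tested probe sets. Before adjustment 1 member had a limma p under 0.05, where 15.7% of all tested probe sets did. The Wilcoxon rank-sum test called 0 members, with 0 under 0.05 before adjustment, and 14 of all 27022 tested probe sets. The median difference was 0.33 over the members and 0.003 over all tested probe sets. Nothing in the labels says how the animals were housed or collected, so the p-values measure the spread between these mice only.

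**Figure D2:**
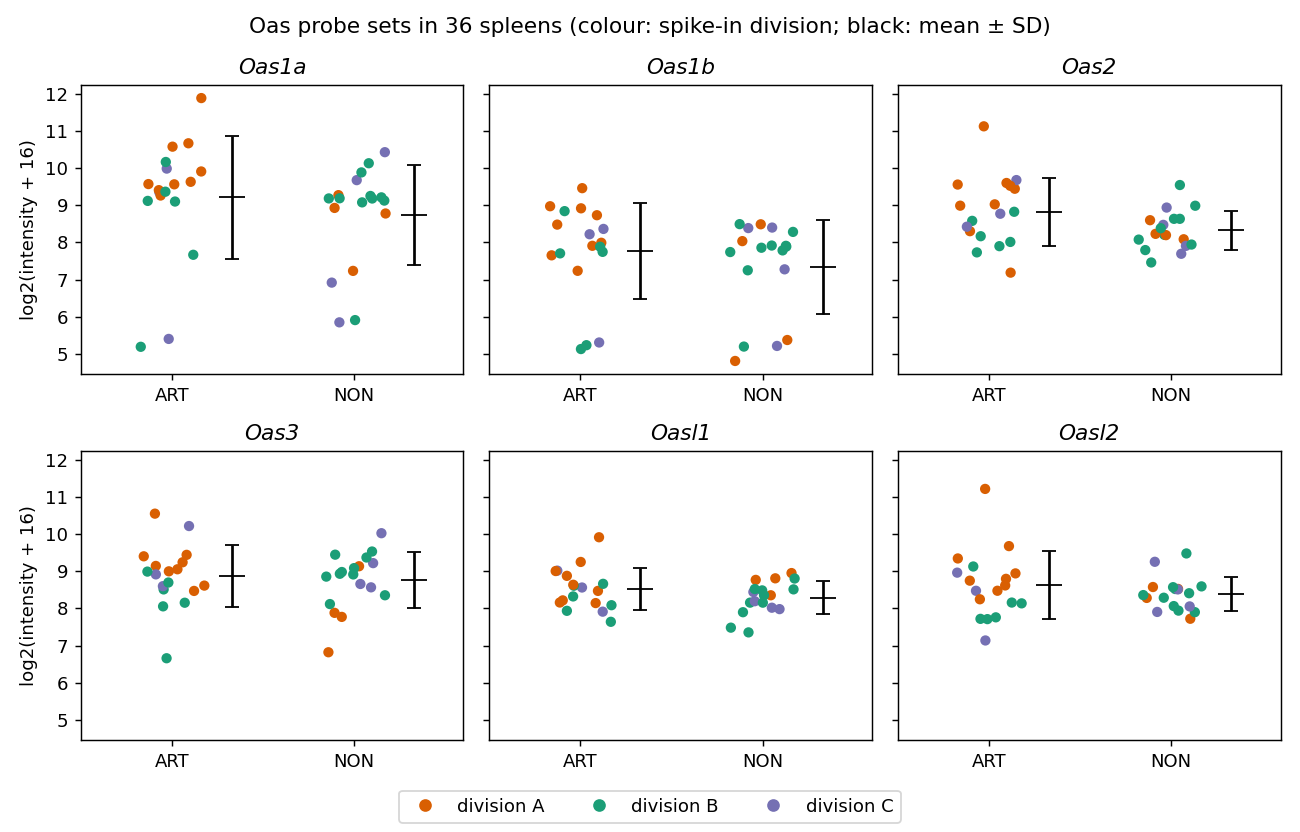
Log2(intensity + 16) of the 6 members on a shared y axis in the 18 ART and 18 NON mice, coloured by spike-in division, with the mean ± SD of each group in black. All 6 arthritic means lie above the non-arthritic ones with overlapping points, and Oas1a and Oas1b have low mice in both groups.

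The size and sign of these differences changed with the spike-in division. In division A (9 arthritic and 4 non-arthritic arrays) all 6 members were higher in arthritic mice, with Oas1b at 1.69 (SE 0.57), Oas1a at 1.50 (SE 0.43) and Oas3 at 1.31 (SE 0.36). In division B (6 and 10 arrays) 5 of 6 were lower, with Oas3 at -0.78 (SE 0.28), Oas1a at -0.58 (SE 0.63) and Oas1b at -0.54 (SE 0.53). In division C (3 and 4 arrays) 4 were higher and 2 lower, with Oas2 at 0.70 (SE 0.34), Oas1a at 0.03 (SE 1.20) and Oas1b at -0.022 (SE 0.85). None of these within-division differences passed in limma, the lowest adjusted p being 0.122, for Oas3 in B. Over all tested probe sets limma called 0 within A, 738 within B and 0 within C.

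Oas2 differed by 0.92 in A and -0.16 in B, Oasl2 by 0.84, -0.31 and -0.24 in A, B and C, and Oasl1 by 0.02, 0.04 and 0.34. Oasl1 was thus the member whose sign was the same in all 3 divisions. Whether the differences differ between divisions was not tested. The share of all tested probe sets that were higher in arthritic mice within each division is not given here. The low Oas1b mice were spread unevenly: 0 of 9 arthritic and 2 of 4 non-arthritic mice in A, 2 of 6 and 1 of 10 in B, and 1 of 3 and 1 of 4 in C. With the division as a block the differences were 0.38 (SE 0.24) for Oas2, 0.32 (SE 0.42) for Oas1b, 0.25 (SE 0.48) for Oas1a, and between 0.09 and 0.11 for the other 3.

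**Figure D3:**
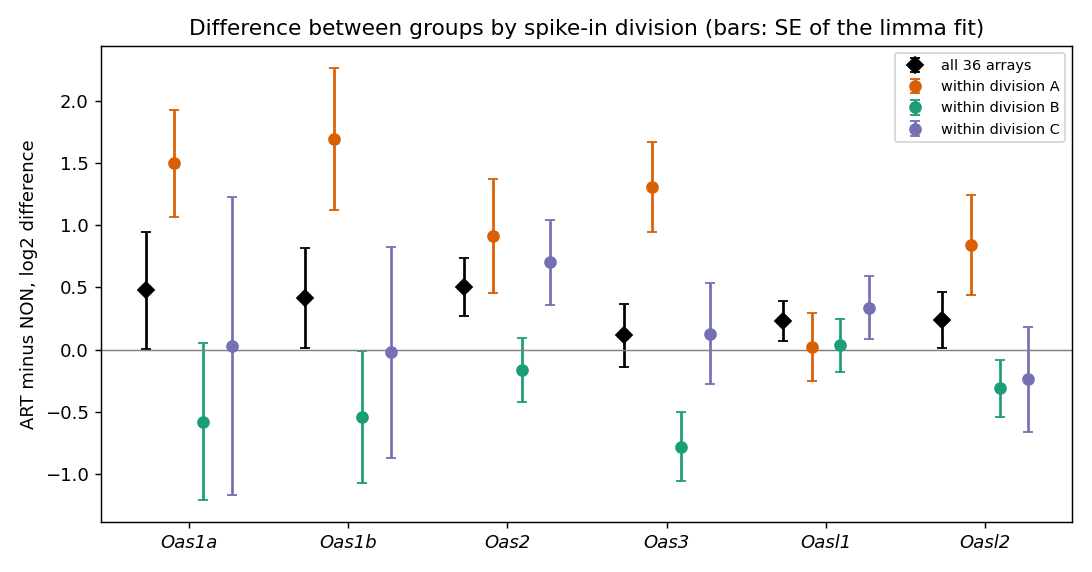
Difference between ART and NON mice in log2(intensity + 16) on the y axis for each member, over all 36 arrays (black diamonds) and within divisions A, B and C (coloured circles), with the SE of the limma fit as bars. All 6 members lie above 0 in A, and 5 of 6 lie below 0 in B.

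Spread between mice was compared because the study looked for subpopulations among the arthritic animals. Each value's absolute distance from its group median was used. The mean distance was larger in arthritic mice for all 6 members, as it was for 57.1% of all tested probe sets. It was 0.64 against 0.33 log2 for Oasl2 (difference 0.32, SE 0.15) and 0.70 against 0.39 for Oas2 (difference 0.31, SE 0.16). Limma called 0 of the 6, with 1 under p 0.05 before adjustment (Oasl2, 0.0404, adjusted p = 0.627). It called 0.0% of all tested probe sets, 2071 of which had an unadjusted p under 0.05.

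A single arthritic mouse carried the top of every range. ART3 was the highest of all 36 mice in each of the 6 members. Its Oasl2 intensity was 2357 where the next mouse had 801.1, its Oas2 2213 where the next had 802.3, and its Oas1a 3758 where the next had 1609. Oas1b, Oas3 and Oasl1 were closer to the next mouse, at 687.8 and 486.5, 1480 and 1172, and 947.9 and 592.2.

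Without ART3 the difference between groups went from 0.24 to 0.09 for Oasl2, from 0.11 to 0.02 for Oas3, from 0.48 to 0.32 for Oas1a and from 0.23 to 0.15 for Oasl1. That of Oas2 was then 0.37 (SE 0.20) and that of Oas1b 0.32 (SE 0.40). The difference in spread without it was 0.19 for Oasl2 and 0.22 for Oas2, and for Oas3 it turned from 0.03 to -0.03. ART3 was also second highest of 36 in the mean of monocyte and macrophage markers and rank 3 in erythroid markers, while its median array intensity ranked 20. The part of these in its Oas values was not tested.

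The members varied together from mouse to mouse. Because Oas1b and Oas1a each have a low set, correlations are given within the 29 mice of the high Oas1b set. They describe values that share the same arrays, and the 29 mice still include NON11, which is low in Oas1a. There all 15 pairs of members were positive, with a median Pearson r of 0.65 and a median Spearman rho of 0.60. The closest pair was Oas2 with Oasl2, at r = 0.87 and rho = 0.86, and r was 0.82 without the 2 mice farthest from the Oas2 median. Oas2 with Oasl1 gave r = 0.80 and rho = 0.77, and Oas1a with Oas2 r = 0.77 and rho = 0.78. Oas1b with Oas3 was the lowest pair, at r = 0.39 and rho = 0.35, in a set of mice that was itself chosen by Oas1b.

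ART3 enters these values. Without it the median over the 15 pairs was 0.53, Oas2 with Oasl2 stayed at 0.80 and Oas1b with Oas2 was 0.27. Within the high set the median r was 0.74 in the 15 arthritic and 0.54 in the 14 non-arthritic mice, but the median rho was 0.56 and 0.60, and the median r without the 2 farthest mice 0.56 and 0.55. Oas1a with Oasl1 had r = 0.90 in the arthritic and 0.18 in the non-arthritic mice, with rho = 0.83 and 0.16. Whether the groups differ in these correlations was not tested. Across all 12427 tested genes and all 36 mice, the median r of a pair was 0.004 and the highest 5% of pairs began at 0.47. In the 7 mice of the low Oas1b set the 15 values ran from -0.69 to 0.65.

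**Figure D4:**
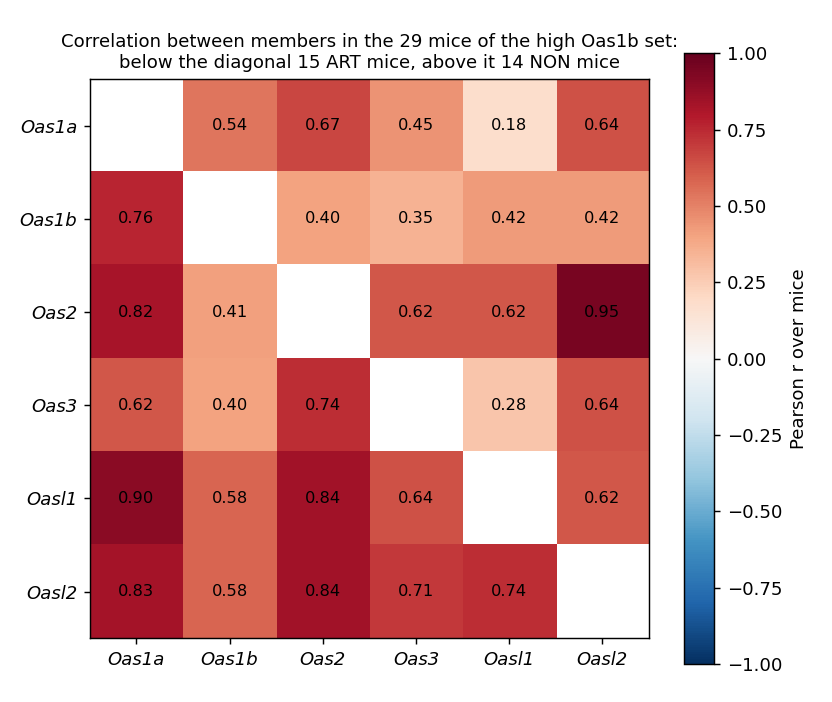
Pearson r between members over the 29 mice of the high Oas1b set, below the diagonal in 15 ART and above it in 14 NON mice, on a colour scale from -1 to 1. All values are positive, Oas2 with Oasl2 is high in both groups, and Oas1a with Oasl1 is 0.90 in ART and 0.18 in NON mice.

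Oas1b was set beside all other tested genes to find the patterns most like it over the 36 mice. This ranking mixes both of its sets, so r within the 29 high mice is given beside each. Oas1a came first (r = 0.82, and 0.68 within the high set, where rho was 0.51 and r without ART3 was 0.58). Among the arthritic mice of the high set its r was 0.76 and rho 0.62, and among the non-arthritic ones 0.54 and 0.27. Without the 2 mice of each group farthest from the Oas1a median, r was 0.56 and 0.09. Stx2, a membrane fusion protein, followed (r = 0.65 over 36 mice and 0.09 within the high set), then P2rx7, the ATP-gated channel of macrophages (0.63 and 0.44). Ifit1bl2 of the interferon-induced Ifit family came next (0.61 and 0.34). Pi16 (0.59 and 0.07), the sorting nexin Snx22 (0.58 and 0.11), Gfod2 (0.57 and 0.50) and Traip (0.55 and 0.19) completed the 8. For Stx2, Pi16 and Snx22, r was thus near 0 among the high mice, while it was above 0.5 with the low mice included.

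Of these 8 genes, 3 lie on chromosome 5, as do 6.37% of all tested genes. They are Oas1a, the next tested gene to Oas1b in order, P2rx7, 27 tested genes away, and Stx2, 79 away on the same side. Most close neighbours were not alike. Of the 95 tested genes within 50 of Oas1b that are not members, 2 had an r beyond 0.5 in either direction, P2rx7 and Erp29, and their median absolute r was 0.15. On other chromosomes the median was 0.14, with 38 of 11635 genes (0.327%) beyond 0.5, against 2.11% of those 95 and 7 of 691 (1.01%) farther away on chromosome 5. Oas1c, the next tested gene on the other side of Oas1b, had r = 0.30.

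**Figure D5:**
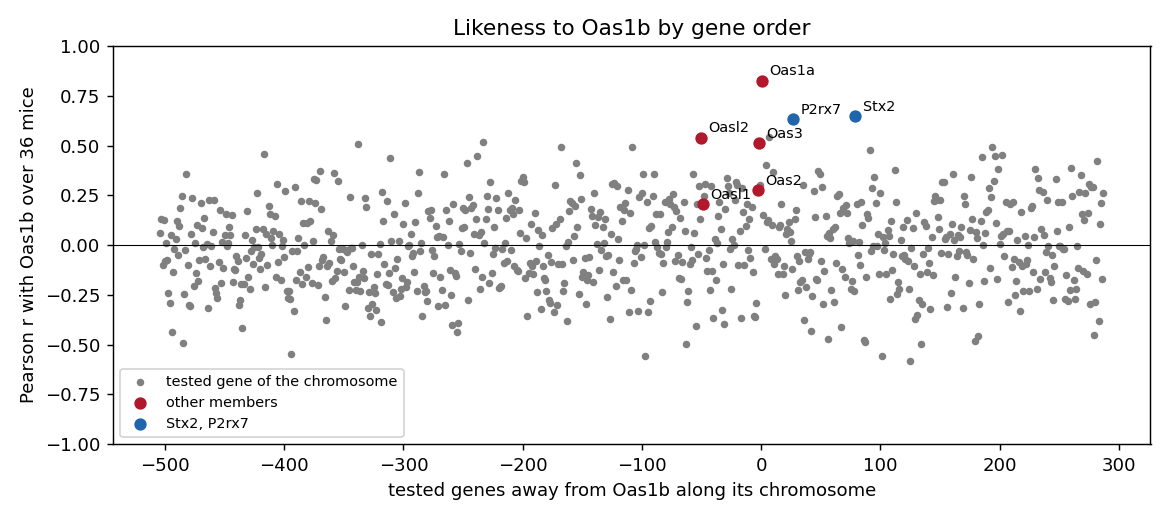
Pearson r with Oas1b over 36 mice on the y axis for each tested gene of the same chromosome, against its distance from Oas1b counted in tested genes. Oas1a at 0.82, Stx2 at 0.65 and P2rx7 at 0.63 stand above the other genes, and most close neighbours lie near 0.

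Besides the members, 5 probe sets name Oas genes, and 1 of them, Oas1c, passed the filter on low values. Its intensity had a median of 176.4 and a narrow log2 range of 6.75 to 8.30, and it had r = 0.47 and rho = 0.42 with the family level described next. The probe sets of Oas1e, Oas1f and Oas1h and the one shared by Oas1d and Oas1e had medians between 7.19 and 41.5, which is below the filter.

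The mean of the other 5 members, each centred on its own mean, gave a family level per mouse. It ran from -1.28 through a median of 0.25 to 2.28 in arthritic mice and from -0.92 through -0.07 to 0.84 in non-arthritic mice. ART3 at 2.28, ART2 at 0.98 and NON8 at 0.84 were the highest, and ART18 at -1.28 and ART12 at -1.16 the lowest. Arthritic mice thus held the outermost animals at both ends, with ART3 and ART2 in division A, ART18 in B and ART12 in C. The median of arthritic mice was 0.53 in A, -0.40 in B and 0.26 in C. For non-arthritic mice it was -0.29, -0.06 and -0.33. The part of the division in the family level was not tested. The members were not scaled to equal spread, so Oas1a weighs most: all 7 mice low in Oas1a lay between ranks 26 and 36 of the family level. ART18, the lowest, ranked 36 in Oas1a and Oas3 but 17 in Oas2 and 10 in Oasl1, counted from the highest.

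The 8 genes most like this family level were chosen by the same ranking, and most are known as interferon-induced. Irf7, the factor that amplifies type I interferon production, came first with r = 0.82 over 36 mice and 0.74 without ART3. It was followed by Ifi44l (0.81), the deubiquitinating enzyme Usp18, which limits interferon receptor signalling (0.81), the chaperone Rtp4 (0.80), Ifit1, which binds foreign RNA (0.77), Ifi27 (0.77), the RNA helicase Dhx58 (0.76) and Gm9706 (0.74). None of these 8 lies on chromosome 5. Without ART3 their r was 0.62 to 0.74, and within the 29 high Oas1b mice 0.73 to 0.90. The differences between arthritic and non-arthritic mice in these 8 genes ran from 0.10 to 0.46, and the lowest limma adjusted p was 0.236.

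Of 14 partners of the pathway and RNA sensors, 13 were tested and limma called 0 between arthritic and non-arthritic mice, with 4 under p 0.05 before adjustment. The Wilcoxon test also called 0, with 4 under 0.05. Of the 13, 10 had a positive difference, with a median of 0.11, and 10, 7 and 9 were positive within divisions A, B and C. Over all tested probe sets 50.9% had a positive difference and 15.7% an unadjusted p under 0.05, which is the background for this and the next lists. Closest to the threshold was Tlr7, the endosomal sensor of single-stranded RNA, at 8.84 ± 0.36 against 8.31 ± 0.42 (SD, n = 18 each), a difference of 0.53 (SE 0.13, adjusted p = 0.0857 in limma). Eif2ak2, the RNA-activated kinase PKR, differed by 0.40 (SE 0.16), the sensor Ddx58 by 0.21 (SE 0.09) and Dhx58 by 0.30 (SE 0.15).

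For interferon signalling, 15 of 16 genes were tested, with 0 called, 14 positive and 5 under p 0.05 before adjustment, and the Wilcoxon test called 0, with 3 under 0.05. Within divisions A, B and C 7, 12 and 12 of the 15 were positive, with medians of -0.03, 0.22 and 0.13. The smallest p belonged to Stat2, the partner of Irf9 in the interferon-activated complex, with a difference of 0.48 (SE 0.13, limma adjusted p = 0.0952). Irf9 differed by 0.23 (SE 0.09), Irf3 by 0.15 (SE 0.07) and Irf7 by 0.44 (SE 0.20). The median r of the 15 genes with the family level was 0.01, from -0.51 to 0.82. Probe sets of 6 interferon genes, Ifnb1 and Ifng among them, all lay below the filter on low values.

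Of 20 other interferon-stimulated genes, 17 were tested, with 0 called, 14 positive and 6 under p 0.05 before adjustment, and the Wilcoxon test gave 0 and 6. Xaf1 had the largest difference of those named, 1.02 (SE 0.28, limma adjusted p = 0.0931), but an r with the family level of only 0.23. The antiviral GTPase Mx1 differed by 0.44 (SE 0.17), Rtp4 by 0.46 (SE 0.19) and Parp14 by 0.22 (SE 0.09). The median r of the 17 with the family level was 0.57, and 0.37 without ART3, where the median over all tested genes was -0.03. Of the 17, 16 were positive within division A (median 0.42) and 7 within B (median -0.02), while 15 were positive within C (median 0.16).

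Marker lists of other cell types were set beside the family level. The monocyte and macrophage list (4 of 5 genes with a probe set) had r = 0.51 and rho = 0.42 with it over 36 mice, and r = 0.34 without the 2 mice farthest from the median family level. Its mean log2 level was 11.56 to 12.43 in arthritic and 11.74 to 12.34 in non-arthritic mice. Neutrophil genes (5 of 6) had r = 0.40, at 12.86 to 14.88 and 12.42 to 14.93. Red pulp macrophage genes (4 of 4) had r = 0.37. Without the same 2 mice, r was 0.33 for neutrophil and 0.20 for red pulp macrophage genes. Over single tested genes, r with the family level was -0.41 at the 5th percentile and 0.375 at the 95th.

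Lymphocyte lists pointed the other way, with r = -0.39 for T cells (4 of 4) and -0.38 for B cells (3 of 4). Both lay within the range between those percentiles of single genes, and were -0.24 and -0.28 without the 2 farthest mice. Plasmacytoid dendritic cells, known as strong producers of type I interferon, had r = -0.25 (4 of 4 genes, at 7.83 to 8.72 in arthritic and 7.74 to 9.40 in non-arthritic mice). NK cell (2 of 3) and erythroid lists (4 of 5) had r = 0.25 each, and 0.13 and -0.04 without the 2 farthest mice. Adipocyte genes (1 of 3) had r = -0.03 and rho = -0.02, and pancreas acinar genes (6 of 7) r = 0.01 but rho = 0.33. The Gapdh 3′ to 5′ log2 ratio had r = -0.31 and rho = -0.31 with the family level. None of the marker genes was at 0, but only 3 of 6 pancreas and 3 of 4 erythroid genes passed the filter on low values. Between the Oas1b sets the ranges of every marker list overlapped. The part of cell composition in the Oas values was not tested.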

How the data were processed

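Per the labels' protocols, total RNA came from a Trizol extraction and carried a biotin label. The authors deposited linear intensity values. The submitters' processing notes name MAS5, for which no version was given in sources used here. The trimmed mean, without the top and bottom 2% of probe sets, was 500.0 on every array. No detection calls were used. Values were analysed as log2(value + 16) without normalization between arrays. After 64 control probe sets were left out, those with a mean below the 40th percentile (log2 6.49) were dropped, which left 27022 of 45037, including all 6 members.

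Genes were named from the platform annotation. It names 1 gene for 34958 probe sets and several for 932, does not list 9160, and 34754 found their gene in the RefSeq table (GRCm38.p6). Where several probe sets named 1 gene, the brightest on average stood for it. Groups and replicate numbers come from the titles, and 0 pairs of arrays held identical values.

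Limma 3.58.1 in R 4.3.3 (lmFit, eBayes with trend, two-sided, Benjamini-Hochberg over all tested probe sets, threshold 0.05) was fitted to levels and to absolute deviations from group medians. It was tested on simulated data with independent noise and without divisions or an outlying mouse, unlike the arrays here. The rule for divided sets was also tested on simulated data. Spike-in divisions are 3 Ward clusters of 18 hybridisation control probe sets, each array centred on its mean control level. Correlations are descriptions without p-values. Other steps ran in Python 3.11.15 with scipy 1.17.1, pandas 2.3.3 and numpy 2.4.6, and plots were drawn with matplotlib 3.10.9.

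Members, gene lists and settings were chosen with earlier results of these data known. Named genes are all members, the 8 most like Oas1b, the 8 most like the family level, and up to 4 per list with the smallest unadjusted p. The naming of Oas1c, Erp29 and single mice followed their values. Symbols Mb21d1 and Tmem173 were read as Cgas and Sting1.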

Additional observations from a re-analysis of the deposited data

How the results depend on the processing

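For level, 0 members were called with pseudocounts of 1 and 64, no filter, a filter at the 60th percentile (5 of 6 members tested), quantile normalization, the division or replicate number as a block, the Gapdh ratio or pancreas score as a covariate, no trend, the Wilcoxon test, within divisions and with each of 36 arrays left out. For spread, 0 were called with both pseudocounts, both blocks and each array left out, the settings run for it. The lowest adjusted p of a member was 0.122 in level and 0.541 in spread. The filters, the missing trend, the replicate block and the Wilcoxon test leave a member's difference as it is by construction and bear on its p alone. Among the settings that can move it, 7 differences reversed, all within divisions. In division B these were Oas1a at -0.58, Oas1b at -0.54, Oas2 at -0.16, Oas3 at -0.78 and Oasl2 at -0.31, and in division C Oas1b at -0.022 and Oasl2 at -0.24. The cause was not tested. The divisions were applied singly after the data were seen. Leaving out 1 array gave differences of 0.31 to 0.71 for Oas1a, 0.27 to 0.57 for Oas1b, 0.37 to 0.60 for Oas2, 8.5e-05 to 0.24 for Oas3, 0.15 to 0.28 for Oasl1 and 0.09 to 0.33 for Oasl2.

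Over all tested probe sets the 13 calls in level became 0 without the filter, without the trend, with the division block and within divisions A and C. They became 1 after quantile normalization, 2 with the Gapdh ratio, 21 with the filter at the 60th percentile, 360 with the pancreas score and 738 within division B. Leaving out 1 array gave between 0 and 389. With the replicate number as a block they became 369, but nothing shows that the numbers pair animals: of 18 same-numbered pairs, 11 had deviations correlated above 0.1 (median 0.15, from -0.23 to 0.47), and 6 of 36 arrays correlated best with their own number. The block changed no call of a member.

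The rule for divided sets found 2 members under both other pseudocounts and after quantile normalization. The mice of the low Oas1a set nevertheless change with a pseudocount of 1, as described above. Pooled over all 36 mice, both Oas1b sets included, the median r of the 15 pairs was 0.54, with 0.66 in arthritic and 0.36 in non-arthritic mice, 0.46 without ART3, and 0.63, 0.46 and 0.66 in divisions A, B and C. Each member has 1 probe set, so averaging probe sets could not change a value. The low Oas1b intensities lie below every array's median, and no detection calls were used.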
